A study of Homo sapiens with 18 samples.

Results

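The baseline gene expression of the bladder cancer cell line UC7 is described here against the control arrays of the 2 other lines of the same study, UC14 and Scaber. The study hybridised total RNA of 3 human urothelial cancer cell lines to Illumina bead arrays, 18 arrays in 6 groups of 3. UC7 cells were left untreated or given rosiglitazone, an agonist of the nuclear receptor PPAR gamma, at 1 µM for 24 h. UC14 cells carried a non-targeting shRNA or an shRNA against p63, and Scaber cells a non-targeting siRNA or an siRNA against STAT3. The comparison used 9 of the 18 arrays, the 3 UC7 untreated controls, the 3 UC14 non-targeting shRNA arrays and the 3 Scaber non-targeting siRNA arrays. A gene is called UC7-specific when the UC7 controls differed from UC14 and from Scaber in the same direction, each at an adjusted p under 0.05. All 3 lines were grown in the same serum-containing medium. Each group is 1 cell line, and its control treatment was its own: the UC7 controls are not labelled with a non-targeting RNA, and the sources used here do not say whether they received the drug's vehicle. Line, control treatment and array background therefore cannot be told apart in any difference below. The 3 arrays of a group are numbered as replicates in the labels, which do not say whether each had its own culture. The p-values therefore rest on array-to-array variation that could be purely technical.

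The urothelium is the layered epithelium that lines the bladder. Its basal cells rest on a basement membrane, hold on to it through hemidesmosomes and make the keratins KRT5 and KRT14. Its luminal cells depend on the transcription factors GATA3, FOXA1 and PPARG, make the simple keratins and cover themselves with uroplakins. Bladder cancer lines are commonly sorted by how far they keep to one of these programmes, and lines with a basal programme often carry squamous genes as well.

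The arrays of the lines differed in brightness before normalization. The median raw signal lay between 51.6 and 55.4 on the UC7 control arrays, between 99.5 and 111.9 on the UC14 arrays and between 110.9 and 115.8 on the Scaber arrays. Between 19963 and 20160 of the 47323 probes were detected (detection p under 0.01) on a UC7 array, against 14032 to 15287 in UC14 and 17293 to 18021 in Scaber. The dimmest detected signal was highest in UC14, at up to 5.98 on the normalized log2 scale. The pairwise correlation across genes, which are not replicates, was 0.9956 to 0.9969 among the UC7 arrays and at least 0.9822 within the other groups. The typical standard deviation of a gene (median over genes) was 0.101 in UC7, 0.165 in UC14 and 0.143 in Scaber. No files were identical. Gene values below are normalized signals on the log2 scale, 1 probe per gene, and differences are in log2 units. Where a gene was not well above background on all 3 arrays of a line, only a lower bound of the fold is given, against the dimmest detected probe of each of those arrays.

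Of 11694 genes tested, 4776 (40.8%) were higher and 3682 (31.5%) lower in UC7 than in UC14, 72.3% in all. Against Scaber, 4963 (42.4%) were higher and 3746 (32%) lower, 74.5% in all. UC14 and Scaber differed from each other at 7862 genes (67.2%), 34.7% higher in UC14 and 32.6% lower. The UC7-specific genes numbered 3230 higher (27.6%) and 2001 lower (17.1%). Those shares are the background against which each gene list below is read. A difference of at least 2-fold from both lines was seen for 1323 higher (11.3%) and 613 lower genes (5.24%). Those counts were 719 and 338 without background correction, 716 and 343 with the authors' log2 values, 4365 and 142 under median scaling over all probes and 893 and 1311 under median scaling over the tested genes. In 25 of the UC7-specific lower genes and none of the higher ones, 1 of the calls compares UC7 with a line in which the gene was also below background. KRT14, CT45A5 and SERPINA3 are the members of the gene lists among them. The UC7 arrays overlapped neither other line at 1322 of the 1323 and at all 613 genes at least 2-fold different, beside 47.8% of all tested genes. The rule that chose these genes on the same arrays all but fixes this, so it adds no support. The smaller of the 2 differences reached 4 log2 units at 34 higher and 17 lower genes. Just inside the 2-fold limit were OSBPL10 and NCKAP5, both at 1.0, and just outside it PDE4DIP and PIN4P1 at 0.9997 and 0.9992. On the lower side SYPL1 and TMEM30B lay just inside and EMC9 and DUS2 just outside. These 8 genes are named for their place at the limit alone.

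The direction of the whole set rested on how the arrays were scaled. The median difference of all genes was 0.13 from UC14 and 0.17 from Scaber after quantile normalization, and 61.7% of UC7-specific genes were higher. Median scaling, which sets each array to its median over all probes, gave 7349 higher and 392 lower genes, 94.9% higher, with the median gene 1.17 above UC14 and 0.90 above Scaber. Median scaling over the tested genes gave 2269 higher and 3555 lower, 39% higher, with the median gene at -0.27 and -0.14. Of the 1936 genes at least 2-fold different, 1662 and 1889 remained UC7-specific under these scalings and none turned over. Of all 5231 UC7-specific genes, which the lists and chromosomes below count, 3620 and 4253 remained. Of the rest, 183 and 46 turned over to UC7-specific in the other direction. For each gene list, counts under these scalings stand beside the main ones where the majority changed sides. Of the 1323 higher genes, 657 belonged to the dimmest 3898 genes by mean signal and 278 to the brightest 3898, against 90 and 236 of the 613 lower genes. At 365 of the higher genes neither other line was above background, and 262 of those had a UC7 mean above the highest detection limit of UC14. Array brightness moved with line here, and its part in these counts was not tested.

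**Figure D1:**
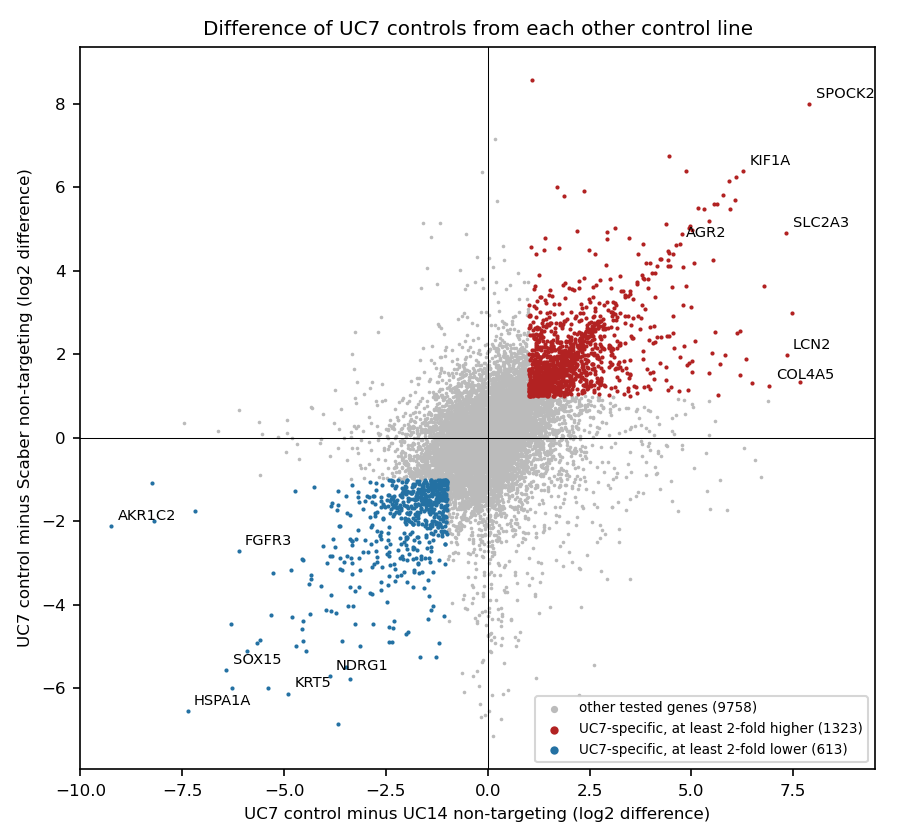
Each point is 1 of 11694 tested genes, placed by the log2 difference of the UC7 controls from the UC14 controls (x axis) and from the Scaber controls (y axis), 3 arrays per line. Red points are the 1323 genes at least 2-fold higher and blue points the 613 at least 2-fold lower in UC7 than in both lines, and because both axes share the UC7 arrays the points spread along the diagonal.

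The same lines were also measured in the 9 treated arrays, which the rule did not use. There 1155 of the 1323 higher genes and 550 of the 613 lower genes passed in both contrasts in the same direction. Passing asks only for an adjusted p under 0.05, and 818 and 379 of them were also at least 2-fold in both contrasts. In that fit 26.1% of all genes were UC7-specific higher and 17.8% lower. Only 4 of the genes had both differences on the opposite side, namely HPCAL1, MIR614, NCKAP5 and TIMP3, which are named because they are so few. The treated arrays share the lines and not the treatments, so each line carries its own treatment there too. They share the difference in brightness as well. The median raw signal was 53.9 to 56.3 on the UC7 treated arrays and at least 96.3 on those of the other lines.

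The 15 genes that stood highest in UC7 are described one by one, with no list or theme tested. Their choice required UC7 arrays that overlap neither other line and detection on all 3 UC7 arrays, so neither trait is a result. SPOCK2 is a proteoglycan of the extracellular matrix, and its signals were 12.97, 13.35 and 13.32 on the UC7 arrays, 5.35, 5.06 and 5.53 on the UC14 arrays and 4.95, 5.43 and 5.27 on the Scaber arrays. KIF1A, a kinesin that carries vesicles along axons, gave 10.73, 10.96 and 10.91 on the UC7 arrays, 4.38, 4.48 and 4.92 on the UC14 arrays and 4.55, 4.47 and 4.39 on the Scaber arrays. For both genes the UC7 arrays stood far above the 6 others, and KIF1A was not detected in either other line. SPOCK2 was at least 170-fold above UC14 and 8.0 log2 units above Scaber (detected on 2 of 3 Scaber arrays), with a larger adjusted p of 1.42e-10. KIF1A was at least 33.5-fold above UC14 and at least 49.3-fold above Scaber, with a larger adjusted p of 1.73e-10. Among the others were CRMP1, a mediator of growth cone collapse, INA, an intermediate filament of neurons, UCHL1, a deubiquitinating enzyme, and SEPTIN3, a septin. CRMP1 was at least 29.5-fold above UC14 and at least 43.5-fold above Scaber, but its other probe was only 0.73 log2 units above UC14 and 0.59 above Scaber. INA was at least 20.5-fold above UC14 and at least 30.2-fold above Scaber. Their UC7 arrays stood above all 6 others. UCHL1 was at least 27.7-fold above UC14 and at least 40.8-fold above Scaber. SEPTIN3 was at least 13.3-fold above UC14 and at least 19.6-fold above Scaber. Each of these 4 was undetected in both other lines.

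SFRP1, a secreted antagonist of WNT ligands, had signals of 10.88, 10.77 and 10.73 on the UC7 arrays, 5.14, 4.55 and 4.93 on the UC14 arrays and 4.55, 4.87 and 4.52 on the Scaber arrays. GKN1 (gastrokine 1), a product of the gastric mucosa, had 10.09, 9.97 and 10.30 on the UC7 arrays, 4.74, 4.76 and 4.59 on the UC14 arrays and 4.91, 4.65 and 5.18 on the Scaber arrays. IGFBP5, which binds insulin-like growth factors, had 10.15, 10.16 and 10.20 on the UC7 arrays, 4.70, 4.76 and 5.59 on the UC14 arrays and 4.56, 4.94 and 4.51 on the Scaber arrays. In each case the lowest UC7 array was above the highest array of the other lines. SFRP1 was at least 31.8-fold above UC14 and at least 46.9-fold above Scaber. IGFBP5 was at least 20.7-fold above UC14 and at least 30.4-fold above Scaber. GKN1 was at least 19.9-fold above UC14 and 5.21 log2 units above Scaber (detected on 1 of 3 Scaber arrays). None of the 3 was detected in UC14. UBD, a ubiquitin-like protein inducible by cytokines, was at least 26.5-fold above UC14 and at least 39.0-fold above Scaber. XYLT1, which starts glycosaminoglycan chains on proteoglycans, was at least 13.4-fold above UC14 and at least 19.8-fold above Scaber, and LRP3, of the low-density lipoprotein receptor family, was at least 11.5-fold above UC14 and at least 17.0-fold above Scaber. LDOC1 was at least 18.1-fold above UC14 and at least 26.7-fold above Scaber, and CEP15 at least 19.3-fold above UC14 and at least 28.4-fold above Scaber. The other CEP15 probe was only 1.65 log2 units above UC14 and 1.78 above Scaber. The kinase SBK1 was 5.30 log2 units above UC14 (detected on 1 of 3 UC14 arrays) and at least 34.5-fold above Scaber. On the treated arrays all 15 remained higher, SBK1 with the least, a smaller difference of 1.84, and SFRP1 with the next, 4.13.

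The 15 genes furthest below the other lines are described in the same way. Their choice required no overlap with either line and detection on all 3 arrays of both. HSPA1A, a stress-inducible HSP70 chaperone, gave 4.48, 4.53 and 4.62 on the UC7 arrays, 11.70, 11.96 and 12.06 on the UC14 arrays and 11.03, 11.20 and 11.05 on the Scaber arrays. OAT, the mitochondrial ornithine aminotransferase, gave 4.92, 5.02 and 4.63 on the UC7 arrays, 11.26, 11.23 and 10.93 on the UC14 arrays and 10.89, 10.80 and 10.89 on the Scaber arrays. SOX15, a transcription factor of the SOX family, gave 4.83, 4.90 and 4.76 on the UC7 arrays, 11.25, 11.03 and 11.47 on the UC14 arrays and 10.47, 10.51 and 10.21 on the Scaber arrays. The highest UC7 signal of these 3 genes was 5.02, at or near background, and the lowest of the other lines 10.21. HSPA1A was at least 124-fold below UC14 and at least 70.3-fold below Scaber, with a larger adjusted p of 5.62e-11. Its near-identical copy HSPA1B may share the probe, so the signal is not assigned between them. OAT was 6.29 log2 units below UC14 (detected on 1 of 3 UC7 arrays) and 6.0 below Scaber, and SOX15 was at least 78.5-fold below UC14 and at least 43.4-fold below Scaber. BST2, an interferon-induced membrane protein that tethers viruses, was at least 41.7-fold below UC14 and at least 24.6-fold below Scaber. CYP24A1, the enzyme that inactivates vitamin D, was at least 16.3-fold below UC14 and at least 14.9-fold below Scaber. CA12, a carbonic anhydrase of the cell surface, was at least 68.3-fold below UC14 and at least 19-fold below Scaber. The other CA12 probe was 4.12 log2 units below UC14 and 1.62 below Scaber. The glycolytic aldolase ALDOC was 4.81 log2 units below UC14 and 4.29 below Scaber. LXN (latexin), an inhibitor of carboxypeptidases, was 5.92 log2 units below UC14 and 5.12 below Scaber. RAB34, a small GTPase, was at least 40.6-fold below UC14 and at least 24.6-fold below Scaber. The remaining genes of the lowest 15 besides KRT5 and KRT16 were TOX2, SPOCD1, GLIPR1 and ARHGEF35. TOX2 was 4.72 log2 units below UC14 and 4.99 below Scaber. On the 2 other TOX2 probes the distance to the nearer line was less, 3.15 and 1.27 below. SPOCD1 was 4.55 log2 units below UC14 (detected on 2 of 3 UC7 arrays) and 4.59 below Scaber. GLIPR1 was 4.55 log2 units below UC14 (detected on 2 of 3 UC7 arrays) and 4.86 below Scaber, and ARHGEF35 was at least 19.4-fold below UC14 and at least 31.0-fold below Scaber. On the treated arrays CA12 was 1.91 below and CYP24A1 1.62 below the nearer line.

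**Figure D2:**
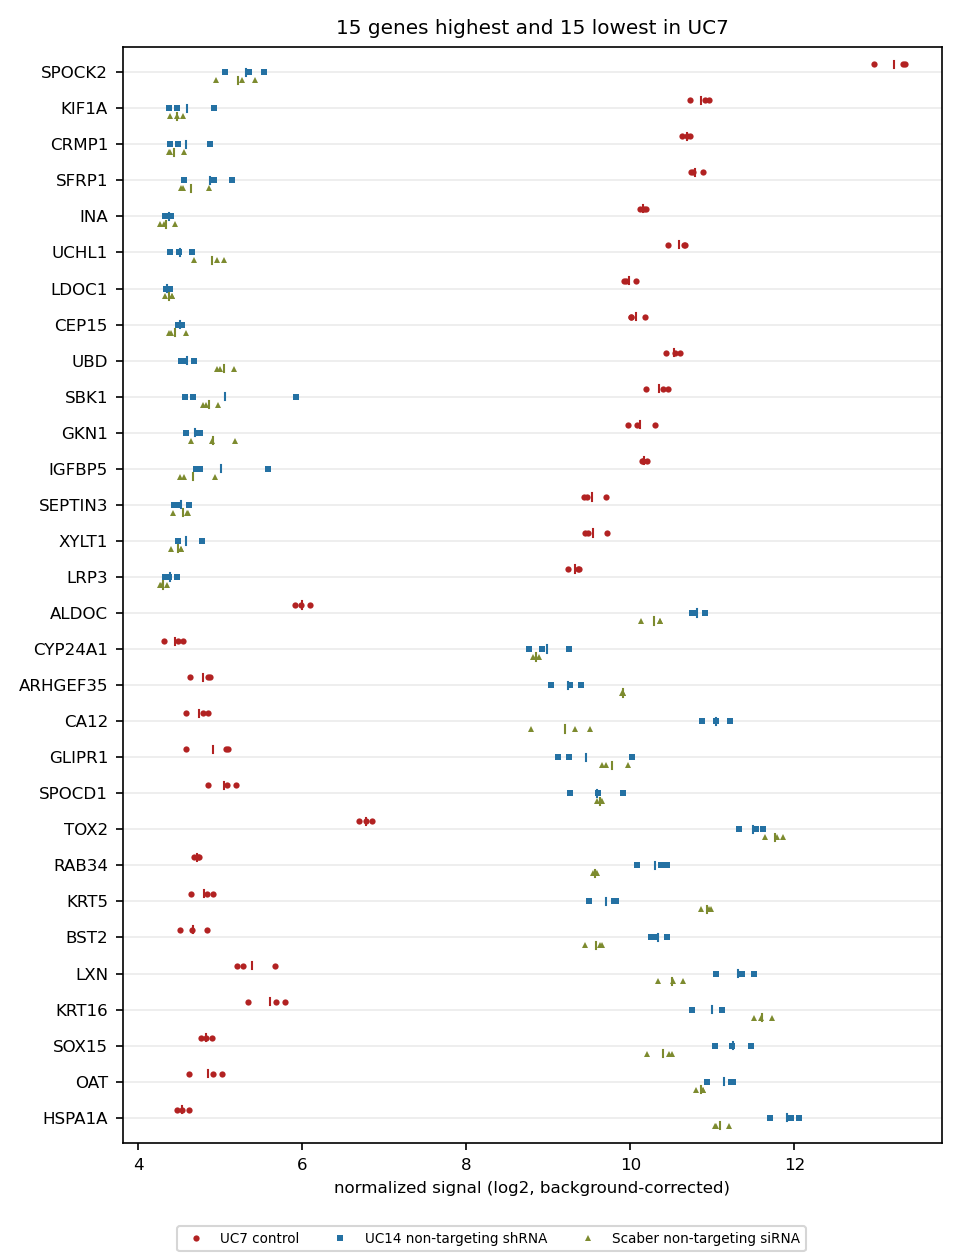
Normalized log2 signal (x axis) of the 15 genes with the largest smaller-of-2 difference in each direction, with 1 point per array and a short bar at the mean of 3 arrays. For the upper 15 genes every UC7 point lies to the right of all UC14 and Scaber points, and for the lower 15 to the left. The choice of these genes required this.

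All 12 tested luminal transcription factors were detected on every UC7 array. In 4 of them (33.3%, near the 27.6% of all genes) UC7 was the highest line. ESR2 and SPDEF were not detected on all 3 arrays of any control group. Of 12 tested genes, 4 were UC7-specific higher and 0 lower. Of these 12, 0 were below background on every UC14 array and 3 on every Scaber array. The median difference was 0.38 from UC14 and 0.74 from Scaber, or 0.38 and 0.58 with genes below background at their bound. GATA3, which maintains luminal identity, had signals of 8.12, 8.23 and 8.13 on the UC7 arrays, 7.81, 8.05 and 8.16 on the UC14 arrays and 4.77, 4.64 and 4.66 on the Scaber arrays. FOXA1, a pioneer factor of luminal cells, had 11.14, 11.12 and 11.14 on the UC7 arrays, 10.86, 10.97 and 11.02 on the UC14 arrays and 8.98, 8.98 and 9.02 on the Scaber arrays. The UC7 and UC14 arrays of GATA3 overlapped and only Scaber was apart, with GATA3 below its detection limit. GATA3 was 0.15 log2 units above UC14 (adjusted p = 0.230) and at least 7.55-fold above Scaber. FOXA1 was 0.19 log2 units above UC14 (adjusted p = 0.0802) and 2.14 above Scaber. PPARG, the nuclear receptor that rosiglitazone binds, had 11.20, 11.13 and 11.07 on the UC7 arrays, 11.96, 11.83 and 11.98 on the UC14 arrays and 10.41, 10.35 and 10.32 on the Scaber arrays. On that probe UC7 lay between the other lines, 0.79 log2 units below UC14 and 0.77 above Scaber. The 2 other probes disagreed with it and with each other: one was 0.87 above UC14 and 0.90 above Scaber, the other 2.19 below UC14 and 0.38 below Scaber. The 4 UC7-specific factors were RXRA, TBX3, EHF and ELF3. RXRA, the partner of PPARG on DNA, was 1.18 log2 units above UC14 and 0.68 above Scaber. ELF3 and EHF are epithelial ETS factors. ELF3 was 1.80 log2 units above UC14 and 0.49 above Scaber, and EHF was 1.21 log2 units above UC14 and 0.83 above Scaber. The T-box factor TBX3 was 0.86 log2 units above UC14 and 2.31 above Scaber, but its other probe gave 0.53 below UC14 and 0.57 above Scaber. TBX2, its relative, was 4.31 log2 units below UC14 and without a fold against Scaber, where it was not well above background. The other factors were not UC7-specific. ESRRA was 0.65 log2 units above UC14 and 0.25 above Scaber (adjusted p = 0.100), KLF5 0.58 log2 units above UC14 and 0.12 above Scaber (adjusted p = 0.528), FOXQ1 0.17 log2 units above UC14 (adjusted p = 0.234) and 0.29 above Scaber (adjusted p = 0.0537), and GRHL3 0.12 log2 units above UC14 (adjusted p = 0.779, detected on 1 of 3 UC14 arrays) and at least 1.09-fold above Scaber (adjusted p = 0.0754).

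The uroplakin list held genes highest in UC7 and 1 that was absent from it. Of 7 tested genes, 4 were UC7-specific higher and 1 lower. The list had a median difference of 1.07 from UC14 and 1.93 from Scaber, or 0.29 and 1.66 with genes below background at their bound. UPK1B, a tetraspanin of the urothelial plaque, had signals of 7.65, 7.68 and 7.59 on the UC7 arrays, 9.98, 10.23 and 10.59 on the UC14 arrays and 5.36, 4.43 and 4.48 on the Scaber arrays. UPK3B, which belongs to the uroplakin III proteins and is known from mesothelium, had 4.44, 4.39 and 4.54 on the UC7 arrays, 7.46, 8.14 and 8.22 on the UC14 arrays and 9.95, 10.07 and 9.84 on the Scaber arrays. UPK1B stood between UC14 and Scaber, and UPK3B was undetected in UC7 only. UPK1B was 2.63 log2 units below UC14 and 2.88 above Scaber (detected on 1 of 3 Scaber arrays). UPK3B was at least 7.91-fold below UC14 and at least 32.0-fold below Scaber, and its 3 other probes lay on the same side. UPK2 and UPK1A, further plaque proteins, were detected on all 3 UC7 arrays and on none of the other 6. They entered the tested genes through the UC7 arrays alone, which had the lowest detection limits of the 3 lines. UPK2 was at least 1.87-fold above UC14 and at least 2.76-fold above Scaber, while UPK1A was without a fold against UC14, where it was not well above background, and at least 1.26-fold above Scaber. VSIG2 was 2.75 log2 units above UC14 (detected on 1 of 3 UC14 arrays) and at least 8.81-fold above Scaber, and TMPRSS2, a surface serine protease, was at least 2.50-fold above UC14 and at least 3.68-fold above Scaber. PSCA, an anchored surface antigen of differentiated urothelium, was 0.29 log2 units above UC14 (adjusted p = 0.317) and 1.66 above Scaber (detected on 1 of 3 Scaber arrays). UPK3A, SNX31 and BHMT were not detected on all 3 arrays of any control group.

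Simple keratins set UC7 apart from Scaber more than from UC14. KRT7 had signals of 12.89, 12.75 and 12.85 on the UC7 arrays, 12.77, 13.04 and 13.10 on the UC14 arrays and 6.74, 6.29 and 6.38 on the Scaber arrays. KRT19 had 14.20, 14.02 and 13.88 on the UC7 arrays, 13.80, 13.88 and 13.87 on the UC14 arrays and 6.82, 6.75 and 7.02 on the Scaber arrays. For both genes the UC7 and UC14 arrays overlapped or adjoined and Scaber was far below. KRT7 was 0.14 log2 units below UC14 (adjusted p = 0.380) and 6.36 above Scaber. KRT19 was 0.18 log2 units above UC14 (adjusted p = 0.170) and 7.17 above Scaber. KRT8 was the UC7-specific member of the 4 tested. It was 1.11 log2 units above UC14 and 2.77 above Scaber, and did not pass on the treated arrays. Its partner KRT18 was 0.01 log2 units below UC14 (adjusted p = 0.939) and 0.95 above Scaber. KRT20, the keratin of umbrella cells, was not detected on all 3 arrays of any control group.

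Of further genes of the luminal programme, 8 of 16 were higher in UC7. Of 16 tested genes, 8 were UC7-specific higher and 1 lower. Its members had median differences of 0.54 from UC14 and 0.96 from Scaber, or 0.40 and 0.96 with genes below background at their bound. HPGD, which breaks down prostaglandins, was 3.82 log2 units above UC14 (detected on 1 of 3 UC14 arrays) and at least 17.9-fold above Scaber. VGLL1, a cofactor of TEAD factors, was 1.70 log2 units above UC14 and 6.02 above Scaber (detected on 1 of 3 Scaber arrays). PLEKHG6 was 3.76 log2 units above UC14 (detected on 1 of 3 UC14 arrays) and 2.87 above Scaber, and GDPD3 was 1.99 log2 units above UC14 and 3.58 above Scaber. TRAK1, an adaptor for mitochondrial transport, was 1.76 log2 units above UC14 and 1.64 above Scaber. The receptor FGFR3 was the one lower member, with signals of 5.98, 6.08 and 6.17 on the UC7 arrays, 12.10, 12.16 and 12.30 on the UC14 arrays and 8.76, 8.96 and 8.64 on the Scaber arrays. The 3 lines did not overlap for FGFR3, and UC7 was the lowest, 6.11 log2 units below UC14 and 2.71 below Scaber. FABP4, a fatty acid carrier and PPAR target, was 6.12 log2 units below UC14 and 0.68 above Scaber, and CYP2J2 was 3.26 log2 units below UC14 and 2.53 above Scaber (detected on 1 of 3 Scaber arrays).

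Basal markers held more lower than higher genes. Of 15 tested genes, 1 was UC7-specific higher and 5 lower. Median differences were -0.19 from UC14 and -1.31 from Scaber, or 0.00 and -1.31 with genes below background at their bound. The lower genes were KRT5, KRT16, DSC3, ITGA6 and KRT14, the last with UC7 and UC14 both below background. KRT5 had signals of 4.92, 4.65 and 4.84 on the UC7 arrays, 9.8, 9.82 and 9.49 on the UC14 arrays and 10.98, 10.96 and 10.86 on the Scaber arrays. KRT14 had 4.46, 4.34 and 4.47 on the UC7 arrays, 4.70, 5.38 and 4.93 on the UC14 arrays and 10.44, 10.64 and 10.46 on the Scaber arrays. KRT16, a keratin of activated and squamous epithelium, had 5.79, 5.34 and 5.68 on the UC7 arrays, 11.11, 11.12 and 10.75 on the UC14 arrays and 11.60, 11.72 and 11.51 on the Scaber arrays. UC7 was undetected for KRT5 and KRT14, UC14 was high for KRT5 and KRT16 but undetected for KRT14, and Scaber was high for all 3. KRT5 was at least 26.9-fold below UC14 and at least 63.1-fold below Scaber. KRT16 was 5.39 log2 units below UC14 and 6.01 below Scaber, with its other probe 2.02 below the nearer line. KRT14 was not well above background in UC7 or UC14 and at least 47.0-fold below Scaber. On the treated arrays, where UC14 carried the p63 shRNA, KRT5 no longer passed: its smaller difference was 0.09. DSC3, a desmosomal cadherin, was 1.65 log2 units below UC14 and 5.25 below Scaber, and ITGA6, an integrin of the hemidesmosome, was 0.63 log2 units below UC14 and 0.66 below Scaber, a direction that turned over under median scaling. TRIM29 was the one higher gene, 0.75 log2 units above UC14 and 1.56 above Scaber.

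The other basal genes lay between the lines or split UC7 from 1 line. DSG3 and PKP1, both desmosomal, were undetected in UC7 and UC14. DSG3 was not well above background in UC7 or UC14 and at least 57.4-fold below Scaber. PKP1 was not well above background in UC7 or UC14 and at least 29.5-fold below Scaber. KRT6C was 1.14 log2 units below UC14 and at least 3.50-fold above Scaber, on a probe that may also read its near-identical copies KRT6A and KRT6B. ITGB4, the integrin that pairs with ITGA6, was 1.44 log2 units below UC14 and 1.09 above Scaber, although its other probe was 2.91 below UC14 and 0.43 below Scaber. CDH3 (P-cadherin) was 0.60 log2 units above UC14 and 1.37 below Scaber, LAMB3 1.16 log2 units above UC14 and 0.71 below Scaber, and DSC2 at least 5.92-fold above UC14 and 1.31 log2 units below Scaber. CD44 was 0.01 log2 units below UC14 (adjusted p = 0.902) and 0.32 below Scaber, and its 2 other probes were 0.39 and 0.66 above UC14. DSP was 0.54 log2 units above UC14 and 0.69 below Scaber, and 1 of its 2 other probes was 0.56 below UC14. KRT6A, KRT6B, KRT17, COL17A1 and TP63, the p63 gene, were not analysed here. NGFR was not detected on all 3 arrays of any control group.

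**Figure D3:**
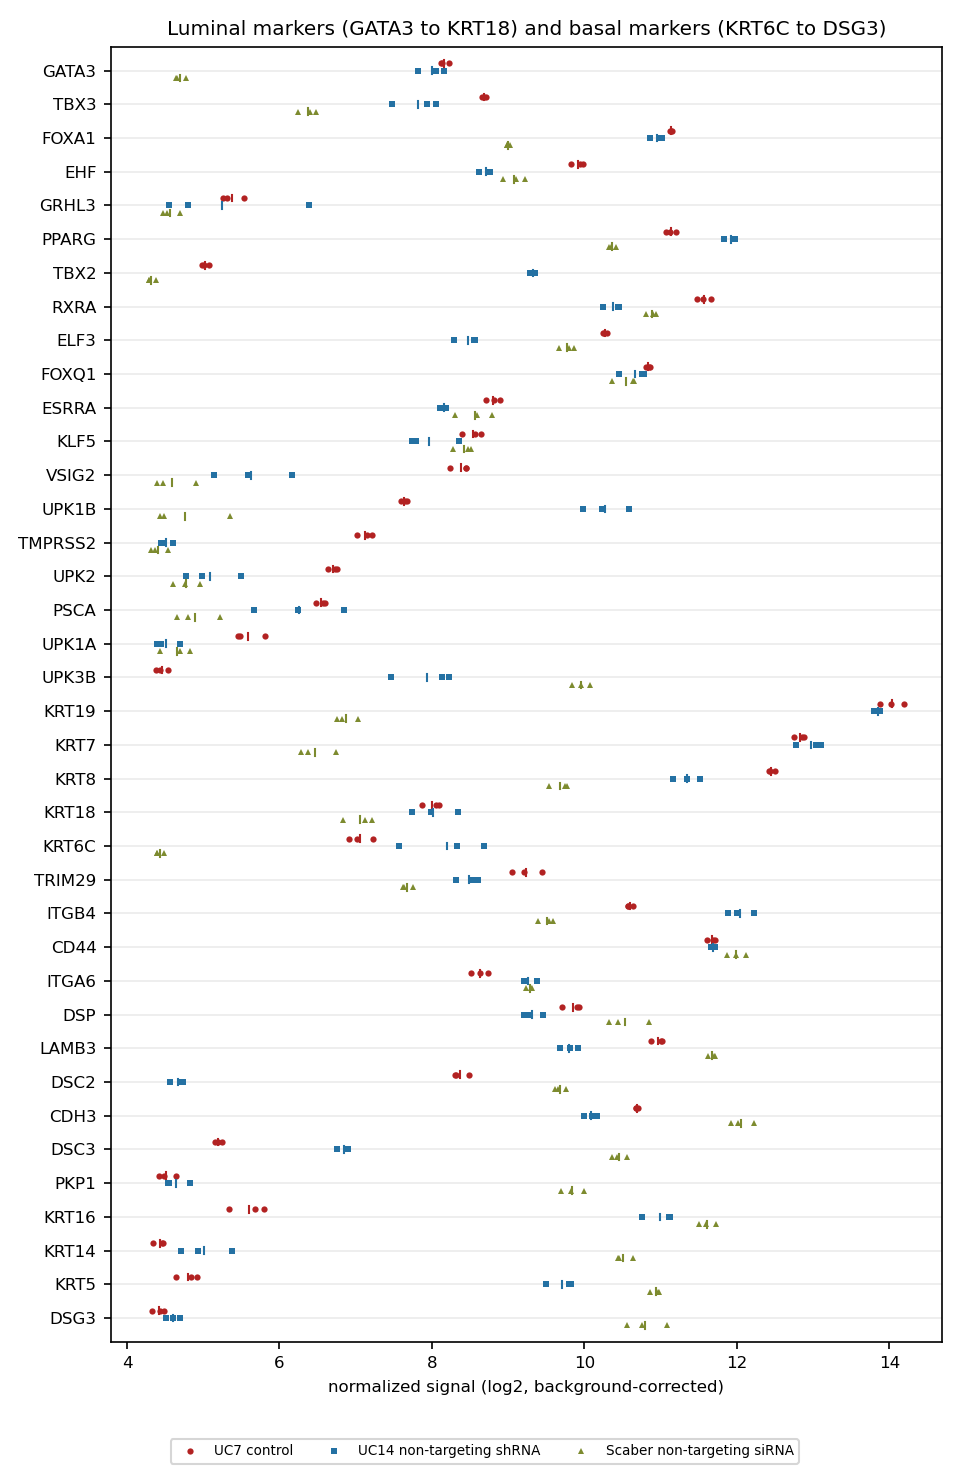
Normalized log2 signal (x axis) of the tested luminal markers, from GATA3 to KRT18, and basal markers, from KRT6C to DSG3, with 1 point per array and a short bar at the mean of 3 arrays. UC7 points lie with or to the right of UC14 for KRT7, KRT19 and GATA3, and at the left for KRT5, KRT14, KRT16 and UPK3B.

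Squamous genes were higher in UC7 about as often as all genes, at 30% against 27.6%, and 12 of the 20 were lower than in Scaber. Of 20 tested genes, 6 were UC7-specific higher and 1 lower, against 6 and 6 under median scaling over the tested genes. At the median, UC7 differed by 1.38 from UC14 and -0.94 from Scaber, or 0.36 and -0.94 with genes below background at their bound. The kallikrein proteases KLK5 and KLK6 were among the higher genes, KLK5 at least 8.98-fold above UC14 and 2.65 log2 units above Scaber, and KLK6 3.57 log2 units above UC14 (detected on 1 of 3 UC14 arrays) and 2.39 above Scaber. The cornified envelope precursor SPRR3 was 1.18 log2 units above UC14 and at least 4.70-fold above Scaber, SPRR2A at least 1.16-fold above UC14 and at least 1.71-fold above Scaber, and SCEL (sciellin) at least 2.99-fold above UC14 and 2.21 log2 units above Scaber (detected on 2 of 3 Scaber arrays). S100A2, a calcium-binding protein of basal cells, was the lower member, 3.84 log2 units below UC14 and 3.76 below Scaber. Serpins typical of squamous cells were at background in UC7. SERPINB3 was not well above background in UC7 or UC14 and at least 77.5-fold below Scaber, and SERPINB13 not well above background in UC7 or UC14 and at least 40.1-fold below Scaber. SERPINB1 was at least 9.25-fold above UC14 and 1.51 log2 units below Scaber.

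Mucosal secretory genes had the largest share of higher members among the lists with 6 or more tested genes in the main scaling, and not under either median scaling. Of 17 tested genes, 11 were UC7-specific higher and 0 lower. For the list the median was 1.79 from UC14 and 1.04 from Scaber, or 1.13 and 0.31 with genes below background at their bound. AGR2, a disulfide isomerase needed for mucin folding, had signals of 12.34, 12.42 and 12.65 on the UC7 arrays, 7.97, 7.58 and 7.73 on the UC14 arrays and 7.69, 7.69 and 8.07 on the Scaber arrays. LCN2 (lipocalin 2), an iron-sequestering defence protein, had 13.89, 13.89 and 14.03 on the UC7 arrays, 6.60, 6.28 and 6.93 on the UC14 arrays and 12.00, 12.06 and 11.82 on the Scaber arrays. The UC7 arrays were the highest for both genes, and UC14 and Scaber overlapped for AGR2. AGR2 was 4.71 log2 units above UC14 and 4.65 above Scaber. LCN2 was 7.33 log2 units above UC14 and 1.98 above Scaber. The transmembrane mucin MUC4 was without a fold against UC14, where the probe used was not well above background, and 1.90 log2 units above Scaber. CEACAM6, an adhesion molecule of mucosal epithelium, was at least 8.20-fold above UC14 and 3.90 log2 units above Scaber (detected on 1 of 3 Scaber arrays). SPINK1, a trypsin inhibitor, was at least 2.19-fold above UC14 and at least 3.23-fold above Scaber. TFF2, a trefoil peptide of mucus, was at least 1.48-fold above UC14 and at least 2.18-fold above Scaber, and LYZ (lysozyme) was without a fold against UC14, where it was not well above background, and without a fold against Scaber, where it was not well above background, a direction that turned over under median scaling over the tested genes. MUC1 was 2.81 log2 units above UC14 and 2.20 below Scaber, MUC16 at least 3.21-fold above UC14 and 0.83 log2 units below Scaber, and ANXA10 2.75 log2 units below UC14 and 0.89 above Scaber. At 8 of the 11 higher members UC14 was below background on every array. Of 28 members with a probe, 17 were tested. Of those, 0 were below background on every UC7 array, 10 on every UC14 array and 7 on every Scaber array. A gene detected in UC7 alone is tested because of UC7, so the detection filter can raise this share.

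Cell junction genes held 8 higher members. Of 17 tested genes, 8 were UC7-specific higher and 1 lower. The middle of the list lay at 0.84 from UC14 and 0.90 from Scaber, or 0.66 and 0.90 with genes below background at their bound. CGN (cingulin), a tight junction scaffold, was 3.48 log2 units above UC14 and 1.85 above Scaber. The claudin CLDN3 was at least 1.53-fold above UC14 and at least 2.25-fold above Scaber. SPINT2, an inhibitor of surface serine proteases, was 1.56 log2 units above UC14 and 1.47 above Scaber, and PATJ, a polarity scaffold, was 1.40 log2 units above UC14 (detected on 2 of 3 UC14 arrays) and 0.97 above Scaber. E-cadherin, CDH1, was 0.66 log2 units above UC14 and 0.94 above Scaber. The splicing regulator ESRP1, named after its values were seen because it was the one lower member, was 0.41 log2 units below UC14 and 1.47 below Scaber. CLDN1 was 2.17 log2 units above UC14 and 1.54 below Scaber, and SPINT1 1.28 log2 units above UC14 and 0.09 above Scaber (adjusted p = 0.465).

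Mesenchymal genes differed both ways. Of 17 tested genes, 4 were UC7-specific higher and 5 lower, against 5 and 2 under median scaling. The median difference was -0.12 from UC14 and -0.87 from Scaber. N-cadherin, CDH2, was 2.84 log2 units above UC14 and 2.65 above Scaber, on the same arrays as the higher E-cadherin signal. COL6A1, a collagen VI chain, was at least 3.47-fold above UC14 and 2.64 log2 units above Scaber (detected on 1 of 3 Scaber arrays), and COL1A2, a collagen I chain, at least 1.11-fold above UC14 and at least 1.64-fold above Scaber. TAGLN (transgelin), an actin-binding protein, was 4.56 log2 units below UC14 and 2.91 below Scaber. SNAI2 (Slug) was 1.43 log2 units below UC14 and 1.5 below Scaber, and COL1A1, the other collagen I chain, 2.81 log2 units below UC14 and 1.40 below Scaber. LOX was not well above background in UC7 or UC14 and at least 26.5-fold below Scaber, S100A4 2.39 log2 units below UC14 and 0.43 above Scaber (adjusted p = 0.0744), and AXL 1.93 log2 units above UC14 and 1.12 below Scaber.

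Type IV collagen, the network collagen of basement membranes, made up 4 of the 5 higher genes of the basement membrane list. Of 18 tested genes, 5 were UC7-specific higher and 3 lower, against 4 and 5 under median scaling over the tested genes. The list had a median difference of -0.06 from UC14 and 0.10 from Scaber. The chains form 2 pairs of genes that lie head to head on the genome. COL4A1 had signals of 10.77, 10.84 and 10.70 on the UC7 arrays, 5.84, 6.10 and 5.78 on the UC14 arrays and 4.28, 4.43 and 4.46 on the Scaber arrays. COL4A2 had 8.69, 9.16 and 8.78 on the UC7 arrays, 4.35, 4.57 and 4.46 on the UC14 arrays and 4.62, 5.26 and 4.43 on the Scaber arrays. UC7 was the highest line for both. COL4A5 had 11.27, 11.40 and 11.27 on the UC7 arrays, 4.30, 4.42 and 4.48 on the UC14 arrays and 10.10, 10.10 and 9.99 on the Scaber arrays. COL4A6 had 10.13, 10.24 and 10.16 on the UC7 arrays, 4.30, 4.29 and 4.46 on the UC14 arrays and 8.08, 8.32 and 8.20 on the Scaber arrays. UC7 was the highest line for these chains too. COL4A1 and COL4A2 were low in both other lines, while COL4A5 and COL4A6 were undetected in UC14 and present in Scaber. COL4A1 was 4.86 log2 units above UC14 (detected on 2 of 3 UC14 arrays) and at least 46.2-fold above Scaber. COL4A2 was at least 8.42-fold above UC14 and at least 12.4-fold above Scaber. The second pair was nearer to Scaber. COL4A5 was at least 45.6-fold above UC14 and 1.25 log2 units above Scaber. COL4A6 was at least 20.7-fold above UC14 and 1.98 log2 units above Scaber. NID1 (nidogen), which links collagen IV to laminin, was without a fold against UC14, where it was not well above background, and at least 1.46-fold above Scaber. LAMB1, a laminin chain, was 0.01 log2 units below UC14 (adjusted p = 0.954) and 2.09 above Scaber.

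The starts of COL4A1 and COL4A2 lie 127 bases apart on chromosome 13 and those of COL4A5 and COL4A6 380 bases apart on chromosome X, so the promoter windows of a pair overlap. The window of the plus-strand chain of each pair is shown. The COL4A1 and COL4A2 windows share 226 of 300 bases and the COL4A5 and COL4A6 windows 121. The windows run from 250 bases before to 50 after the start, from RefSeq on GRCh38.p14, on the plus strand. Capitals mark CCAAT (or ATTGG) and GGGCGG (or CCGCCC), searched on both strands with no overlap between the motifs. The COL4A2 window is chr13:110307034-110307333 and the COL4A5 window chrX:108439588-108439887.
COL4A2: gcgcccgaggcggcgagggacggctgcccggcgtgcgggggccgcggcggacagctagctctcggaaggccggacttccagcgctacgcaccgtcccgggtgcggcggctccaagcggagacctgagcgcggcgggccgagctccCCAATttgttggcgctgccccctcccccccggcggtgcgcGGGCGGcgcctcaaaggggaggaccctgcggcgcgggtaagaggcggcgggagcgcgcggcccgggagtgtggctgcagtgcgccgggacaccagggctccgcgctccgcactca
COL4A5: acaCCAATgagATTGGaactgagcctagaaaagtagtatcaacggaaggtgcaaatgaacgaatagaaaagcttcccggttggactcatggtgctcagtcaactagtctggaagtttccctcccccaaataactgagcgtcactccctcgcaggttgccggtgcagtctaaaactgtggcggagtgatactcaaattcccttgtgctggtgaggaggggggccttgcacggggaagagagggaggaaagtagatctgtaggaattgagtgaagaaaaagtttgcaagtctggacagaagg
The COL4A2 window held 1 CCAAT and 1 GGGCGG and was 77.7% G and C. The COL4A5 window held 2 CCAAT and no GGGCGG and was 49.3% G and C. Of 35116 RefSeq promoter windows of that length, 34.6% held CCAAT and 45% GGGCGG. Of the windows not shown, that of COL4A1 held 1 CCAAT and 2 GGGCGG, and that of COL4A6 held 3 CCAAT and no GGGCGG.

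Of the cytokine and NF-kB genes, 11 of 24 were higher in UC7. Of 24 tested genes, 11 were UC7-specific higher and 1 lower. Its members had median differences of 1.66 from UC14 and 0.48 from Scaber, or 0.90 and 0.37 with genes below background at their bound. Of the 24, 13 were below background on every UC14 array, 4 on every Scaber array and 0 on every UC7 array. CXCL5 and CXCL6, chemokines that attract neutrophils, were above background in UC7 alone. CXCL5 was at least 7.14-fold above UC14 and at least 10.5-fold above Scaber, and CXCL6 at least 2.52-fold above UC14 and at least 3.71-fold above Scaber. RELB and NFKB2 encode the transcription factor pair of the noncanonical pathway. RELB was at least 8.78-fold above UC14 and 2.44 log2 units above Scaber, and NFKB2 at least 4.98-fold above UC14 and 2.32 log2 units above Scaber. TNFAIP3 (A20), an NF-kB inducible inhibitor of the same signalling, was at least 16-fold above UC14 and 1.93 log2 units above Scaber, and ICAM1 at least 1.40-fold above UC14 and at least 2.06-fold above Scaber. The chemokine CCL5 was 0.79 log2 units above UC14 (detected on 2 of 3 UC14 arrays) and 4.66 below Scaber, with its other probe 0.23 below UC14, CXCL8 4.51 log2 units above UC14 and 0.16 above Scaber (adjusted p = 0.218), and CXCL1 at least 9.31-fold above UC14 and 1.05 log2 units below Scaber.

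In the STAT3 pathway 9 of 23 genes were higher. Of 23 tested genes, 9 were UC7-specific higher and 3 lower. Median differences were 0.85 from UC14 and 0.14 from Scaber, or 0.37 and 0.14 with genes below background at their bound. STAT3 itself, the transcription factor that the study silenced in Scaber, had signals of 10.28, 10.40 and 10.30 on the UC7 arrays, 9.37, 9.67 and 9.48 on the UC14 arrays and 9.89, 9.93 and 9.89 on the Scaber arrays. The UC7 arrays were above the 6 others, 0.82 log2 units above UC14 and 0.43 above Scaber, and its 2 other probes lay on the same side. Among pathway members and targets, the kinase JAK1 was 2.31 log2 units above UC14 and 1.96 above Scaber. The survival protein BCL2L1 was 1.96 log2 units above UC14 and 2.44 above Scaber, but its other probe was 0.48 above UC14 and 1.13 above Scaber. MCL1, another survival protein, was 3.25 log2 units above UC14 and 1.69 above Scaber, although its other probe was 1.60 above UC14 and 0.07 below Scaber. MYC was lower, 1.90 log2 units below UC14 and 1.64 below Scaber, and so was FOS, 2.01 log2 units below UC14 and 1.29 below Scaber. OSMR, a receptor chain for oncostatin M, was 0.10 log2 units below UC14 (adjusted p = 0.426) and 2.33 below Scaber.

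Interferon-stimulated genes held more lower than higher members in the main scaling. Of 44 tested genes, 4 were UC7-specific higher and 11 lower, against 9 and 7 under median scaling. At the median, UC7 differed by 0.56 from UC14 and -1.70 from Scaber, or 0.27 and -1.70 with genes below background at their bound. IRF7, a transcription factor that amplifies interferon production, was at least 7.65-fold below UC14 and at least 17.6-fold below Scaber. IFI35 was 3.34 log2 units below UC14 and 3.26 below Scaber. OASL, of the oligoadenylate synthetase family, was 2.43 log2 units below UC14 and 4.90 below Scaber, and the antiviral membrane protein IFITM2 was 2.36 log2 units below UC14 and 4.88 below Scaber. IFITM3, its close relative, was 1.96 log2 units below UC14 and 4.66 below Scaber. Other genes of the list stood above UC14 and below Scaber. IFI27 was at least 1.75-fold above UC14 and 6.17 log2 units below Scaber, and UBE2L6 at least 17.1-fold above UC14 and 1.72 log2 units below Scaber. IFITM1 was not well above background in UC7 or UC14 and at least 20.2-fold below Scaber.

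Antigen presentation genes held few UC7-specific members. Of 18 tested genes, 3 were UC7-specific higher and 2 lower, against 3 and 4 under median scaling over the tested genes. For the list the median was 1.36 from UC14 and -0.94 from Scaber, or 1.28 and -0.94 with genes below background at their bound. HLA-B, a class I heavy chain, was 5.38 log2 units above UC14 (detected on 2 of 3 UC14 arrays) and 1.28 below Scaber. PSMB9, an immunoproteasome subunit, was at least 6.36-fold above UC14 and 0.84 log2 units below Scaber. CTSS (cathepsin S), a protease of class II presentation, was at least 2.36-fold above UC14 and at least 3.48-fold above Scaber, and the peptide transporter TAP2 was 1.15 log2 units above UC14 and 1.20 above Scaber. The other TAP2 probe was on the opposite side, 0.99 below UC14 and 0.64 below Scaber. HLA-DRA was 1.07 log2 units below UC14 and 2.24 below Scaber, although its other probe was 0.30 above UC14. The HLA genes are close copies of each other, so the signal of any single one is uncertain.

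**Figure D4:**
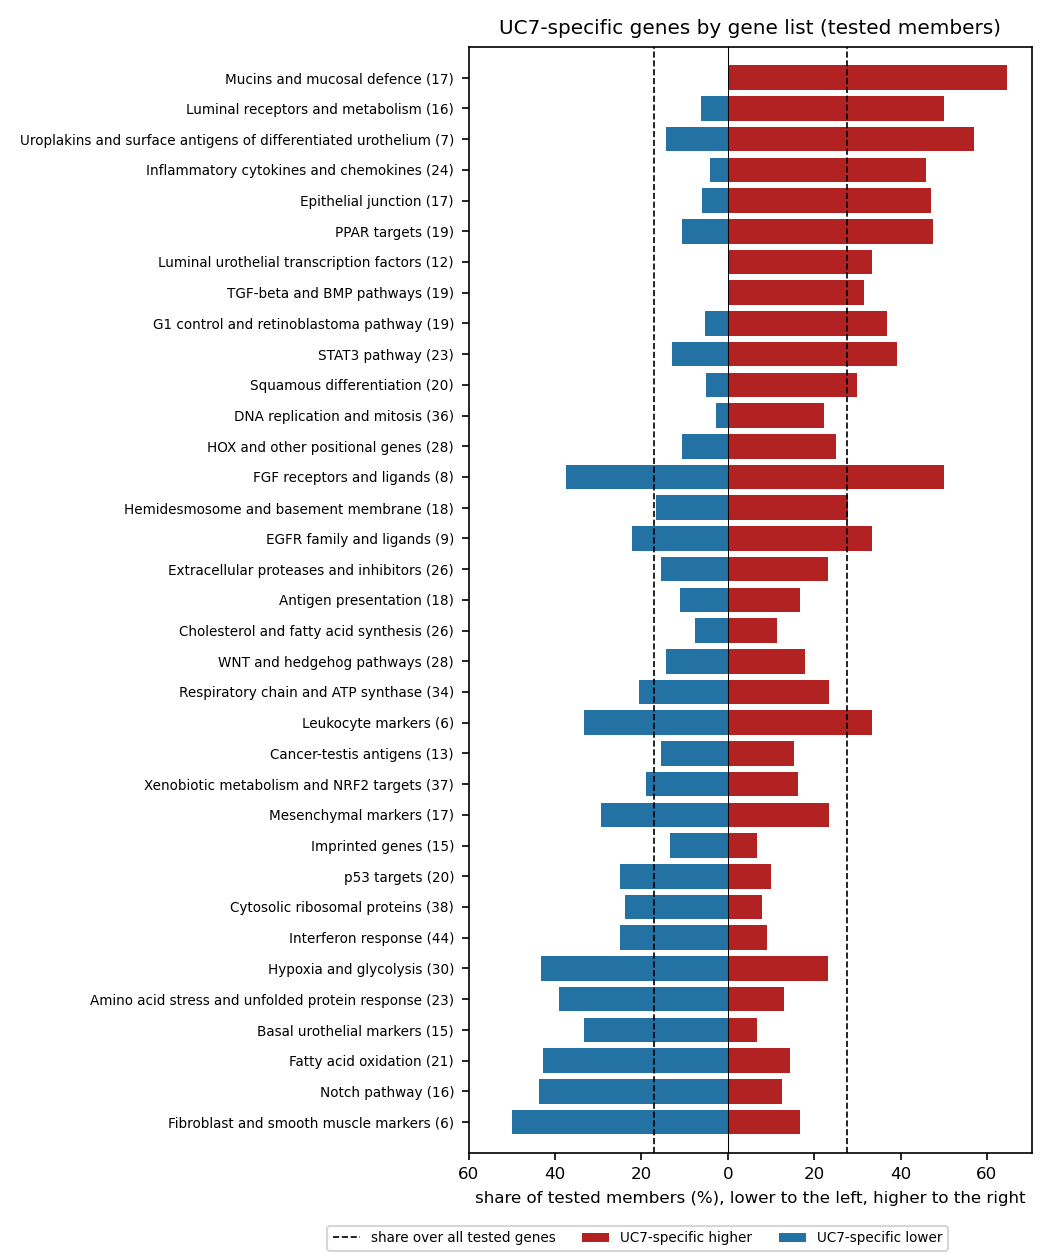
Share of the tested members of each gene list (number in brackets) that were UC7-specific higher (red, to the right) or lower (blue, to the left), for lists of at least 6 tested genes. The dashed lines mark the shares over all tested genes, 27.6% higher and 17.1% lower.

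Of 19 PPAR targets 9 were higher in UC7, the line that the study treated with rosiglitazone. Of 19 tested genes, 9 were UC7-specific higher and 2 lower. The middle of the list lay at 1.20 from UC14 and 0.64 from Scaber, or 0.78 and 0.64 with genes below background at their bound. Of the 19, 7 were below background on every UC14 array, 4 on every Scaber array and 0 on every UC7 array. The fatty acid transporter CD36 was at least 8.05-fold above UC14 and at least 11.9-fold above Scaber. PDK4, which restrains pyruvate oxidation, was at least 2.22-fold above UC14 and at least 3.27-fold above Scaber, and the lipoprotein receptor VLDLR was at least 4.76-fold above UC14 and 2.18 log2 units above Scaber. CREB3L4 was at least 1.88-fold above UC14 and at least 2.76-fold above Scaber. The lower gene FABP5 was 2.39 log2 units below UC14 and 3.04 below Scaber. ANGPTL4, an inhibitor of lipoprotein lipase, was at least 5.18-fold above UC14 and 1.39 log2 units below Scaber.

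Enzymes of fatty acid oxidation were more often lower in the main scaling. Of 21 tested genes, 3 were UC7-specific higher and 9 lower, against 10 and 1 under median scaling. The median difference was -0.38 from UC14 and -0.51 from Scaber. ECI2 and ECI1 are isomerases that handle unsaturated fatty acids. ECI2 was 2.43 log2 units below UC14 and 2.74 below Scaber, and ECI1 1.56 log2 units below UC14 and 1.75 below Scaber. CPT1A, the entry enzyme of mitochondrial oxidation, was 1.5 log2 units below UC14 and 1.70 below Scaber. Its 2 other probes were nearer to Scaber, 1 of them 0.85 below and the other 0.04 above it. The thiolase ACAA2 was higher, at least 9.23-fold above UC14 and 2.67 log2 units above Scaber, and so was ACAA1, 1.17 log2 units above UC14 and 2.02 above Scaber.

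Cholesterol and fatty acid synthesis held few UC7-specific genes. Of 26 tested genes, 3 were UC7-specific higher and 2 lower, against 2 and 4 under median scaling over the tested genes. The list had a median difference of -0.92 from UC14 and 0.28 from Scaber. SCD, the stearoyl-CoA desaturase, was 4.94 log2 units below UC14 and 0.11 above Scaber (adjusted p = 0.298). IDI1 was 2.51 log2 units below UC14 and 0.92 above Scaber, and FASN, the fatty acid synthase, 2.49 log2 units below UC14 and 0.21 above Scaber (adjusted p = 0.231). The lower genes were CYP51A1, 1.91 log2 units below UC14 and 0.53 below Scaber, and ACSS2, 0.99 log2 units below UC14 and 1.08 below Scaber. Of the 2 other ACSS2 probes, 1 was 0.19 above UC14.

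Detoxifying enzymes included very wide gaps to UC14. Of 37 tested genes, 6 were UC7-specific higher and 7 lower, against 18 and 4 under median scaling. Its members had median differences of -0.06 from UC14 and 0.14 from Scaber, or -0.06 and 0.10 with genes below background at their bound. AKR1C2, a steroid-reducing aldo-keto reductase, had signals of 5.18, 5.54 and 5.49 on the UC7 arrays, 14.65, 14.70 and 14.60 on the UC14 arrays and 7.53, 7.42 and 7.64 on the Scaber arrays. On that probe the 3 lines were apart, with UC7 the lowest, 9.25 log2 units below UC14 and 2.13 below Scaber. The other AKR1C2 probe was only 2.79 below UC14 and 0.13 below Scaber. The glutathione transferase GSTM2 was 8.19 log2 units below UC14 (detected on 2 of 3 UC7 arrays) and 2.0 below Scaber, and GSTM1 7.18 log2 units below UC14 and 1.76 below Scaber. The 2 other GSTM1 probes were far below UC14 too but 0.63 above and 0.17 below Scaber. The AKR1C and GSTM genes have close copies, so their probes may read several of them. GSTP1 was 1.86 log2 units below UC14 and 2.25 below Scaber. CYP1A1, an enzyme inducible through the aryl hydrocarbon receptor, was higher, at least 22.5-fold above UC14 and 2.54 log2 units above Scaber, and CYP1B1, inducible in the same way, was at least 6.58-fold above UC14 and 1.21 log2 units above Scaber. UGT1A10 was at least 12.0-fold below UC14 and not well above background in UC7 or Scaber, and ME1 at least 6.95-fold above UC14 and 0.21 log2 units below Scaber (adjusted p = 0.159).

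Hypoxia and glycolysis genes differed both ways. Of 30 tested genes, 7 were UC7-specific higher and 13 lower, against 10 and 4 under median scaling. Median differences were -0.49 from UC14 and -0.55 from Scaber. SLC2A3, a high-affinity glucose transporter (GLUT3), had signals of 12.01, 11.95 and 11.99 on the UC7 arrays, 4.45, 4.82 and 4.69 on the UC14 arrays and 7.16, 7.33 and 6.76 on the Scaber arrays. NDRG1, a gene induced by hypoxia, had 7.14, 7.15 and 7.25 on the UC7 arrays, 11.02, 10.89 and 11.27 on the UC14 arrays and 12.82, 13.10 and 12.78 on the Scaber arrays. UC7 was the highest line for SLC2A3 and the lowest for NDRG1, with no overlap. SLC2A3 was at least 72.5-fold above UC14 and 4.90 log2 units above Scaber. Its probe may also read the close copy SLC2A14. NDRG1 was 3.88 log2 units below UC14 and 5.72 below Scaber. ADM (adrenomedullin) was 2.35 log2 units below UC14 and 1.41 below Scaber, and HIF1A, the hypoxia-inducible factor itself, 1.19 log2 units below UC14 and 1.22 below Scaber. ENO2, the neuronal enolase, was at least 13.9-fold above UC14 and 1.83 log2 units above Scaber. BNIP3 was 3.22 log2 units above UC14 and 2.19 below Scaber, and P4HA2 1.51 log2 units above UC14 and 0.61 below Scaber.

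The serine pathway and the unfolded protein response had more lower than higher members in the main scaling. Of 23 tested genes, 3 were UC7-specific higher and 9 lower, against 9 and 0 under median scaling. At the median, UC7 differed by -0.65 from UC14 and -0.31 from Scaber. PHGDH, the first enzyme of serine synthesis, was 1.31 log2 units below UC14 and 1.22 below Scaber. CRELD2, a factor of the endoplasmic reticulum, was 1.23 log2 units below UC14 and 1.17 below Scaber, and SDF2L1 1.65 log2 units below UC14 and 0.98 below Scaber. HYOU1, a chaperone of the same compartment, was higher, 2.03 log2 units above UC14 and 2.61 above Scaber, and STC2 2.41 log2 units above UC14 and 1.80 above Scaber. PSAT1 was 1.86 log2 units below UC14 and 0.19 below Scaber (adjusted p = 0.161).

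Respiratory chain subunits had shares of 23.5% higher and 20.6% lower, near those of all genes. Of 34 tested genes, 8 were UC7-specific higher and 7 lower, against 4 and 17 under median scaling over the tested genes. For the list the median was -0.34 from UC14 and -0.05 from Scaber. CYCS (cytochrome c) was 1.26 log2 units above UC14 and 1.33 above Scaber, UQCRH 1.04 log2 units above UC14 and 1.22 above Scaber, and NDUFS7 1.10 log2 units below UC14 and 1.26 below Scaber. Of 38 tested ribosomal protein genes, 3 were UC7-specific higher and 9 lower, against 7 and 0 under median scaling. The middle of the list lay at -0.26 from UC14 and -0.21 from Scaber. RPS2 was 0.96 log2 units below UC14 and 1.09 below Scaber, and RPL4 0.82 log2 units below UC14 and 1.26 below Scaber.

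Of the Notch pathway genes 7 of 16 were lower in UC7 than in both lines. Of 16 tested genes, 2 were UC7-specific higher and 7 lower. The median difference was -0.86 from UC14 and -1.19 from Scaber. NOTCH1 had signals of 6.48, 6.52 and 6.41 on the UC7 arrays, 8.51, 8.58 and 8.46 on the UC14 arrays and 8.88, 8.91 and 8.42 on the Scaber arrays. Its ligand DLL1 had 4.92, 4.82 and 5.04 on the UC7 arrays, 8.36, 8.64 and 8.49 on the UC14 arrays and 9.77, 10.06 and 9.55 on the Scaber arrays. All 3 UC7 arrays lay below the 6 others for both genes. NOTCH1 was 2.05 log2 units below UC14 and 2.27 below Scaber. DLL1 was 3.57 log2 units below UC14 (detected on 1 of 3 UC7 arrays) and 4.87 below Scaber. The ligand JAG1 was 1.54 log2 units below UC14 and 1.97 below Scaber. MFNG, a glycosyltransferase that tunes Notch receptors, was 2.86 log2 units below UC14 and 2.55 below Scaber, and the target HES2 2.34 log2 units below UC14 and 4.55 below Scaber. DLL3, a ligand that acts within the cell against Notch, was higher, at least 3.66-fold above UC14 and at least 5.39-fold above Scaber. JAG2 was 0.24 log2 units above UC14 (adjusted p = 0.231) and 2.39 below Scaber, and HES1 1.40 log2 units below UC14 and 0.56 above Scaber.

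WNT genes differed both ways, with SFRP1, described above, the furthest. Of 28 tested genes, 5 were UC7-specific higher and 4 lower, against 4 and 11 under median scaling over the tested genes. The list had a median difference of 0.23 from UC14 and 0.03 from Scaber, or 0.00 and -0.04 with genes below background at their bound. WNT5A, a ligand known for signalling without beta-catenin, was at least 10.3-fold above UC14 and 4.09 log2 units above Scaber (detected on 1 of 3 Scaber arrays), and WNT5B at least 3.35-fold above UC14 and at least 4.93-fold above Scaber. FZD7, a WNT receptor, was 1.60 log2 units above UC14 and 2.33 above Scaber, but its other probe was 0.18 above UC14 and 0.24 below Scaber. WNT7A was lower, 1.51 log2 units below UC14 and 2.33 below Scaber. DKK3 was not well above background in UC7 or UC14 and at least 87.9-fold below Scaber, and WNT4 not well above background in UC7 or UC14 and at least 8.52-fold below Scaber.

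Of 19 tested genes of the TGF-beta and BMP pathways, 6 were UC7-specific higher and 0 lower, against 4 and 2 under median scaling over the tested genes. Its members had median differences of 1.05 from UC14 and 0.64 from Scaber, or 0.26 and 0.64 with genes below background at their bound. TGFBR2, the type II receptor, was 1.70 log2 units above UC14 and 2.44 above Scaber. ID4, an inhibitor of helix-loop-helix factors, was at least 1.29-fold above UC14 and at least 1.90-fold above Scaber, and its relative ID2 2.61 log2 units above UC14 and 1.26 above Scaber. SMAD9 was at least 1.13-fold above UC14 and at least 1.66-fold above Scaber. FST (follistatin), which binds activin, was at least 1.09-fold above UC14 and 4.20 log2 units below Scaber, and BMP2 without a fold against UC14, where it was not well above background, and 3.79 log2 units below Scaber.

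Among growth factor receptors, FGFR1 was higher in UC7 and FGFR3 lower. Of 8 tested genes, 4 were UC7-specific higher and 3 lower. Median differences were 0.83 from UC14 and -0.16 from Scaber, or 0.09 and -0.35 with genes below background at their bound. FGFR1 was at least 1.13-fold above UC14 and at least 1.67-fold above Scaber. SPRY2, a feedback inhibitor of receptor signalling, was 3.06 log2 units above UC14 and 3.0 above Scaber, and SPRY4 1.39 log2 units above UC14 (detected on 1 of 3 UC14 arrays) and 1.77 above Scaber (detected on 1 of 3 Scaber arrays). DUSP6, a phosphatase that switches off ERK, was 1.20 log2 units below UC14 and 2.05 below Scaber. Only 2 of the UC7-specific genes among these 8 passed in the same direction on the treated arrays. Of 9 tested genes of the EGFR family, 3 were UC7-specific higher and 2 lower, against 3 and 3 under median scaling over the tested genes. At the median, UC7 differed by 0.46 from UC14 and -0.35 from Scaber, or 0.26 and -0.35 with genes below background at their bound. The ligand EREG was at least 3.80-fold above UC14 and 1.38 log2 units above Scaber, TGFA 1.01 log2 units above UC14 and 2.0 above Scaber, and NRG4 1.66 log2 units below UC14 and 1.61 below Scaber. NRG1 was without a fold against UC14, where the probe used was not well above background, and 2.74 log2 units below Scaber (detected on 2 of 3 UC7 arrays).

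Of the G1 regulators 7 of 19 were higher, among them 3 genes of the CDKN2A locus. CDKN2A itself is outside the rule for named genes and was chosen after its values were seen. Of 19 tested genes, 7 were UC7-specific higher and 1 lower. For the list the median was 0.66 from UC14 and 0.49 from Scaber, or 0.05 and 0.49 with genes below background at their bound. CDKN2A, which encodes the inhibitors p16 and p14ARF, had signals of 9.41, 9.61 and 9.79 on the UC7 arrays, 4.52, 4.53 and 4.64 on the UC14 arrays and 9.06, 9.0 and 8.53 on the Scaber arrays. CDKN2B, which encodes p15, had 9.81, 9.74 and 9.60 on the UC7 arrays, 5.88, 4.57 and 5.94 on the UC14 arrays and 7.18, 7.21 and 7.49 on the Scaber arrays. UC7 was the highest line for both, and UC14 was near background. CDKN2A was at least 13.9-fold above UC14 and 0.74 log2 units above Scaber. CDKN2B was 4.25 log2 units above UC14 (detected on 1 of 3 UC14 arrays) and 2.43 above Scaber, and its 2 other probes lay on the same side. On 1 of these probes CDKN2B was only 0.55 above UC14 and 0.55 above Scaber. MTAP, a neighbouring gene of methionine salvage, was at least 11-fold above UC14 and 2.51 log2 units above Scaber. CCNE1 (cyclin E1) was 0.98 log2 units above UC14 and 3.09 above Scaber, and E2F3 0.87 log2 units above UC14 and 2.14 above Scaber. RB1, the retinoblastoma protein, was without a fold against UC14, where it was not well above background, and 2.21 log2 units below Scaber. CDK6 was 0.05 log2 units above UC14 (adjusted p = 0.745) and 1.35 below Scaber.

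Of 36 tested genes of replication and mitosis, 8 were UC7-specific higher and 1 lower, against 4 and 5 under median scaling over the tested genes. The middle of the list lay at -0.27 from UC14 and 0.91 from Scaber, or -0.27 and 0.87 with genes below background at their bound. The higher members included MKI67, the proliferation antigen Ki-67, 1.82 log2 units above UC14 and at least 6.66-fold above Scaber, and FOXM1 1.52 log2 units above UC14 and 2.74 above Scaber. CDC20, an activator of the anaphase-promoting complex, was 1.28 log2 units above UC14 and 3.01 above Scaber. MCM4 was the lower member, 1.01 log2 units below UC14 and 1.07 below Scaber. Of 20 tested p53 targets, 2 were UC7-specific higher and 5 lower, against 12 and 0 under median scaling. The median difference was -0.43 from UC14 and 0.26 from Scaber, or -0.43 and 0.17 with genes below background at their bound. BBC3 (PUMA) was 0.90 log2 units below UC14 and 1.01 below Scaber, PHLDA3 0.62 log2 units below UC14 and 1.30 below Scaber, and TIGAR 0.65 log2 units above UC14 and 1.53 above Scaber.

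Positional and germline genes held a few UC7-specific members. Of 28 tested HOX and other positional genes, 7 were UC7-specific higher and 3 lower, against 6 and 9 under median scaling over the tested genes. The list had a median difference of 0.52 from UC14 and -0.28 from Scaber, or 0.00 and -0.28 with genes below background at their bound. HOXD1 was at least 2.34-fold above UC14 and at least 3.44-fold above Scaber, and SOX4 2.53 log2 units above UC14 and 2.77 above Scaber. HOXB3 was at least 1.23-fold above UC14 and without a fold against Scaber, where the probe used was not well above background, and HOXB8 at least 1.24-fold above UC14 and at least 1.83-fold above Scaber. IRX4 was not well above background in UC7 or UC14 and at least 6.57-fold below Scaber, and SOX9 2.39 log2 units above UC14 and 0.45 below Scaber. Of 13 tested cancer-testis antigens, 2 were UC7-specific higher and 2 lower, against 2 and 8 under median scaling over the tested genes. Its members had median differences of 0.04 from UC14 and -1.57 from Scaber, or 0.00 and -1.57 with genes below background at their bound. MAGEC2 was at least 2.99-fold above UC14 and at least 4.41-fold above Scaber, and DDX43 at least 2.53-fold above UC14 and at least 3.73-fold above Scaber. MAGEA4 was not well above background in UC7 or UC14 and at least 73.6-fold below Scaber, with close copies in its family that its probe may read. Of 15 tested imprinted genes, 1 was UC7-specific higher and 2 lower, against 4 and 0 under median scaling. Median differences were -0.21 from UC14 and -0.59 from Scaber, or 0.00 and -0.59 with genes below background at their bound. PLAGL1 was at least 3.79-fold above UC14 and 1.55 log2 units above Scaber, and PHLDA2 2.06 log2 units below UC14 and 0.62 below Scaber. H19 was not well above background in UC7 or UC14 and at least 19.7-fold below Scaber, and PEG10 3.76 log2 units below UC14 and at least 1.31-fold above Scaber.

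Of 26 tested extracellular proteases and inhibitors, 6 were UC7-specific higher and 4 lower, against 3 and 10 under median scaling over the tested genes. At the median, UC7 differed by 0.21 from UC14 and -0.70 from Scaber, or 0.00 and -0.67 with genes below background at their bound. CTSZ, a lysosomal carboxypeptidase, was 3.52 log2 units above UC14 (detected on 1 of 3 UC14 arrays) and 2.69 above Scaber, and CST6 1.45 log2 units above UC14 and 2.73 above Scaber. The urokinase receptor PLAUR was 2.35 log2 units above UC14 and 1.09 above Scaber, while urokinase itself, PLAU, was 2.32 log2 units below UC14 and 0.92 below Scaber. TIMP3, an inhibitor of metalloproteinases, was 1.54 log2 units below UC14 and 2.12 below Scaber, one of the 4 genes on the opposite side in the treated arrays. MMP1 was not well above background in UC7 or UC14 and at least 114-fold below Scaber, and MMP7 at least 2.16-fold above UC14 and 5.44 log2 units below Scaber.

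UC7 carried the markers of an epithelial line: CDH1, KRT7, KRT8, KRT18 and KRT19 were detected on all 3 of its arrays. Markers of other cell types were checked beside them. The lists of fibroblast and smooth muscle markers, endothelial and blood markers and leukocyte markers had 6, 2 and 6 tested genes. Of the 6 fibroblast and smooth muscle genes, 1 was UC7-specific higher and 3 lower. For the list the median was -1.13 from UC14 and -1.99 from Scaber, or -1.0 and -1.99 with genes below background at their bound. COL1A2 was the higher one, at least 1.11-fold above UC14 and at least 1.64-fold above Scaber, and COL1A1, described above, was lower. LUM (lumican) was at least 11.3-fold below UC14 and at least 101-fold below Scaber, and ACTA2 1.98 log2 units below UC14 and 1.80 below Scaber. DCN, PDGFRA, PDGFRB, DES and MYH11 were not detected on all 3 arrays of any control group. Of the 6 leukocyte genes, 2 were UC7-specific higher and 2 lower, against 0 and 3 under median scaling over the tested genes. The middle of the list lay at 0.15 from UC14 and -3.25 from Scaber, or 0.00 and -3.25 with genes below background at their bound. CD68, a lysosomal protein also made outside leukocytes, was 3.43 log2 units below UC14 and 4.04 below Scaber. The other CD68 probes were 1.83 and 0.58 below UC14 and 2.52 and 1.92 below Scaber. CSF1R was 3.34 log2 units below UC14 (detected on 1 of 3 UC7 arrays) and 2.47 below Scaber. The higher genes were LYZ, described above, and ITGAM. ITGAM was without a fold against UC14, where it was not well above background, and at least 1.08-fold above Scaber, a direction that turned over under median scaling over the tested genes. PTPRC and CD3D were not detected on all 3 arrays of any control group. Of the 4 tested neuroendocrine markers ENO2 alone was UC7-specific, and INSM1 was without a fold against UC14, where it was not well above background, and 0.21 log2 units above Scaber (adjusted p = 0.448, detected on 1 of 3 Scaber arrays). CHGA and SYP were not detected on all 3 arrays of any control group. In bulk RNA a lower share of cells that make a gene and less of its RNA per cell cannot be told apart.

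UC7-specific genes were spread unevenly over the chromosomes. Of 221 tested genes on chromosome 13, 61.1% were higher and 2.71% lower, against 27.6% and 17.1% of all genes. Their median difference exceeded that of all genes by 0.72 from UC14 and 1.02 from Scaber, and by 0.71 and 1.05 under both median scalings. Chromosome 9 had 44.4% higher and 5.91% lower, and chromosome X 39% and 8.06%. Chromosomes 22, 14 and 8 had 32.4%, 29% and 28.9% lower and 16.4%, 13.7% and 14.8% higher. Lower genes also outnumbered higher ones on chromosomes 10 (27.2% and 15.6%), 15 (25.1% and 18.3%) and 17 (22% and 19%). Under median scaling over all probes the higher genes outnumbered the lower on chromosomes 22, 14 and 8 too, at 47.6%, 48.3% and 47%, and their medians stayed below that of all genes. The same held on chromosomes 10, 15 and 17, with 47.3%, 52.7% and 55.5% higher. On the treated arrays chromosome 13 had 63.3% higher and 2.26% lower genes. 

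**Figure D5:**
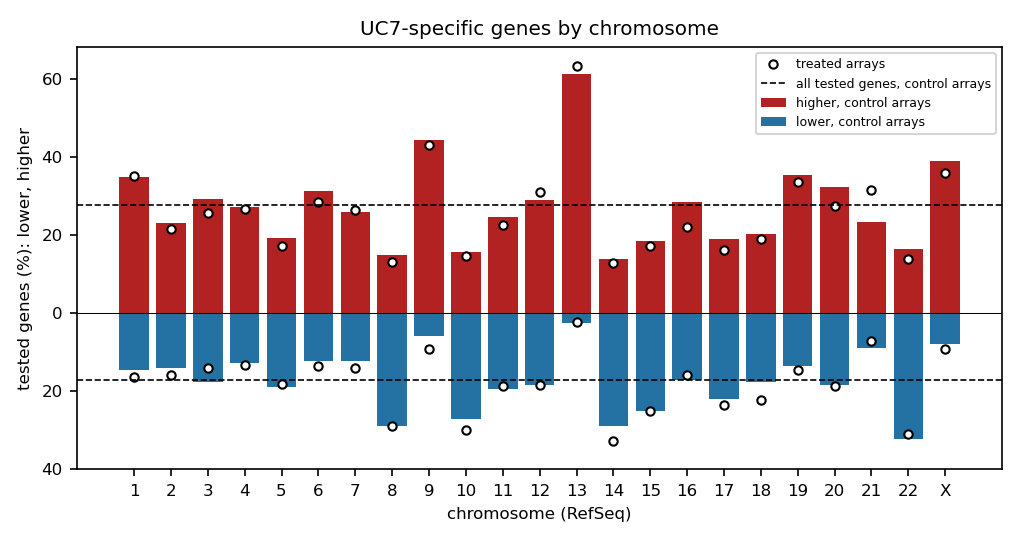
Share of the tested genes of each chromosome that were UC7-specific higher (red bars, upward) or lower (blue bars, downward) on the control arrays, with open circles for the same shares on the treated arrays of the 3 lines. Dashed lines mark the shares over all tested genes, and chromosome 13 rises to 61.1% higher.

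Runs of at least 3 consecutive tested genes were sought among 11681 genes placed on the RefSeq map. There were 65 runs all at least 2-fold higher and 4 all lower. At that limit 11.3% of all tested genes were higher and 5.24% lower, so the 2 counts do not start from equal shares. Runs were not recounted under median scaling over the tested genes, which gave 893 higher and 1311 lower genes. Chromosome 1 held 21 of the higher runs with 101 genes, and chromosome 13 held 7 with 25. Of 1221 tested genes on chromosome 1, 221 were at least 2-fold higher, and of 221 on chromosome 13, 74 were. The longest run had 14 genes on chromosome 1, from C1orf50 through the glucose transporter SLC2A1 and CDC20 to KDM4A, with smaller differences between 1.21 and 2.63. SLC2A1 was 1.38 log2 units above UC14 and 1.21 above Scaber. On chromosome 9 a run of KLHL9, IFNE and MTAP and a run of CDKN2B-AS1, CDKN2B, DMRTA1 and ELAVL2 lay on either side of CDKN2A, whose difference of 0.74 from Scaber missed the 2-fold limit. A run of 7 genes on chromosome 1 and one of 4 on chromosome 6 held mostly histone genes, whose copies are near-identical. One lower run lay on chromosome 14 and held TMEM30B, HIF1A and SNAPC1. 

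Promoter letters were counted for the gene sets. RefSeq windows were matched for 1101 of the 1323 higher, 456 of the 613 lower and 9438 of all tested genes. The AP-1 letters TGANTCA, on either strand, stood in 5.9% of the higher, 4.82% of the lower and 4.64% of all. The forkhead letters TGTTTAC stood in 1.91%, 1.54% and 2.33%, and the GATA letters AGATAA in 5.45%, 5.92% and 4.99%. The median G and C content was 64.3%, 66.7% and 65%. These shares are descriptions of letters and not of binding.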

How the data were processed

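Total RNA of 18 samples was labelled as biotin cRNA and hybridised to Illumina bead arrays of 47323 probes, 1 colour and 1 array per sample. Per the file headers, the authors deposited for each probe a raw signal intensity and a detection p-value from GenomeStudio, and a separate table of processed log2 values, which are quantile-normalized over the 18 arrays as the values themselves show. limma is named in the submitters' processing notes, with its role not given in the sources used here.

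From the intensities, limma 3.58.1 in R 4.3.3 corrected the background from the detection p-values (normexp with an offset of 16), then brought all 18 arrays to a common distribution (quantile normalization) on the log2 scale. Of the probes, 30113 have 1 gene symbol, 8 several and 17202 are not listed in the annotation, and 30074 matched RefSeq. The 157 probes of Y-linked genes or of the X-inactivation transcript were left out. A probe was kept when detected (p under 0.01) on all 3 arrays of a control group, which left 15774 probes. The kept probe with the highest mean over the control arrays stood for each of 11694 genes, and 3227 of these genes had other kept probes. Group means of the 9 control arrays were fitted with lmFit and eBayes (6 residual and 4.09 prior degrees of freedom), with Benjamini-Hochberg adjustment over all genes. Each adjusted p comes from that limma fit. The script was tested on simulated data.

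Genes named are the 15 per direction with the largest smaller-of-2 difference (UC7-specific, at least 2-fold, not overlapping, detected on all 3 arrays of the high groups), all tested members of the luminal factor, uroplakin, simple keratin and basal lists, up to 6 UC7-specific members and 3 others of each further list by size, the tested factors among those the study targeted (STAT3 and PPARG), and members of runs of neighbouring genes. CDKN2A, ESRP1, SERPINA3, genes at the 2-fold limit and genes that turned over on the treated arrays were named after their values were seen. The members and gene lists were chosen with earlier results of these data known. Deviations of same-numbered arrays from their group means correlated between -0.15 and 0.093, so the numbers were not taken as pairs. Alternatives covered background correction, scaling, filtering, probe choice, array weights, a replicate block and leaving out each array.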

Additional observations from a re-analysis of the deposited data

How the results depend on the processing

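Without background correction the genes at least 2-fold different numbered 719 higher and 338 lower, of which 671 and 320 passed on the treated arrays. The authors' own log2 values gave 716 and 343, of which 672 and 323 passed. Median scaling over all probes gave 9411 higher and 735 lower genes against UC14 and 8121 and 1535 against Scaber. It left 2336 genes higher in UC14 than in Scaber. UC7-specific genes then numbered 7349 and 392, those at least 2-fold 4365 and 142, and those passing on the treated arrays 4168 and 118. Median scaling over the tested genes, chosen after seeing the data, gave 5550 genes lower than in UC14 and 3555 UC7-specific lower, of which 1311 were at least 2-fold and 1240 of those passed on the treated arrays. Among the genes named, these scalings turned ITGA6 to 0.28 above the nearer line (all probes) and, over the tested genes, LYZ to -0.30 and ITGAM to -0.091. On the treated arrays the smaller difference turned to -0.12 for HPCAL1, -0.27 for MIR614, -0.34 for NCKAP5 and 0.35 for TIMP3. The cause of these changes was not tested.

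Leaving out each array in turn gave 4424 to 4790 higher and 3421 to 3720 lower genes against UC14, 4634 to 5122 and 3460 to 3855 against Scaber, and 3814 to 4084 and 3553 to 3834 between UC14 and Scaber. UC7-specific genes ranged from 2948 to 3254 higher and from 1792 to 2054 lower, and those at least 2-fold from 1293 to 1335 and from 597 to 625. On the treated arrays 1138 to 1169 and 533 to 561 passed. A fit with the replicate number as a block gave 3157 UC7-specific higher and 1938 lower genes, and the labels tie no number to a shared culture or batch. Of the 1936 genes at least 2-fold different, 1916 remained UC7-specific with the mean of all kept probes and 1932 without the detection filter. A slide block was not run, since the headers name no slides. Signal over background limits the comparison where a gene is dim in UC14 or Scaber, whose arrays had the higher detection limits.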
